A study of Mus musculus with 8 samples.

Results

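Clu, Msln, Il1rn, Il33, Gja1, Cyr61, Ctgf, Tnfrsf12a and Spp1 belong to a program that intestinal epithelium switches on after injury and that resembles fetal epithelium, or are targets of the transcriptional co-activator YAP. The members were found by their symbols in the table of read counts. Of the 9 genes listed, 8 had a row among the 13420 genes of the table and all 8 passed the filter on low counts, while Gja1 was not analysed here. RNA was sequenced from mouse small intestine organoids, which are cultures of epithelium grown from intestinal tissue, on day 3 after mixing, in 4 groups of 2 libraries.

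Wild-type (WT) cells carried mTmG, a reporter with a red membrane-bound tdTomato, and were C57BL/6. Cancer cells came from C57BL/6 (F6) mice that carried Villin-CreERT2 and, among their altered alleles, Apc fl/fl and Tr53 fl/R172H, and they were labelled with the green protein Dendra2. The Villin promoter drives the tamoxifen-dependent Cre in intestinal epithelium, so the cancer cells were an epithelial line with several genes altered at once. Pure WT (libraries A01 and A05) and pure cancer cells (A03 and A07) were grown alone. Mixed WT (A02 and A06) and mixed cancer cells (A04 and A08) were grown together from 2 parts of WT and 1 part of cancer cells, and live cells were then sorted by color. The labels do not say whether the 2 libraries of a group were separate cultures or animals, so the p-values measure the spread between these libraries, which may be technical.

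In the Hippo pathway, the kinases MST and LATS phosphorylate YAP and its relative TAZ and so keep them in the cytoplasm. When this brake is released, YAP enters the nucleus and binds TEAD factors on DNA, and genes such as Cyr61 and Ctgf are transcribed. In the intestine this switch is known to act in repair, where crypts for a time lose adult stem cell markers and express fetal genes such as Ly6a, Clu and annexins.

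The members map to the mouse genome build GRCm38 (GENCODE annotation vM21), where all are protein-coding genes. Clu lies at chr14:65968483-65981547, Msln at chr17:25748613-25754378, Il1rn at chr2:24336853-24351494 and Il33 at chr19:29925114-29960718. Cyr61, now named Ccn1, lies at chr3:145646976-145649981, and Ctgf, now named Ccn2, at chr10:24595442-24598683. Tnfrsf12a lies at chr17:23675445-23677468 and Spp1 at chr5:104435118-104441050. Msln, Cyr61 and Tnfrsf12a are on the minus strand and the others on the plus strand. In the last 500 bases of their transcripts, 8.23% of the windows of 50 bases in Spp1 also occur in the unconfirmed transcript Gm42793 on the same strand, 3.71% of those in Msln and 0.278% of those in Il1rn occur in other genes, and none of those in Clu, Il33, Cyr61, Ctgf or Tnfrsf12a do.

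RefSeq promoters (GRCm38.p6, 250 bases before to 50 bases after a transcription start) were at hand for 5 of the 8 measured members. They were searched on both strands for the TEAD letters GGAATG or CATTCC, which 14.7% of all 32851 promoters in the table hold, and for the AP-1 letters TGANTCA, which 7.81% hold. The TEAD letters stood in the only start of Cyr61, in both starts of Il33 and in 1 of the 3 starts of Il1rn. They stood in neither start of Spp1 and not in that of Tnfrsf12a. The AP-1 letters stood only in 1 start of Il1rn. The 3 promoters below belong to the classical YAP target Cyr61, to Il33, which was read almost only in cancer cells, and to Il1rn, which was highest in WT cells. Capitals mark the letters that matched.

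Cyr61, chr3:145649936-145650235, minus strand: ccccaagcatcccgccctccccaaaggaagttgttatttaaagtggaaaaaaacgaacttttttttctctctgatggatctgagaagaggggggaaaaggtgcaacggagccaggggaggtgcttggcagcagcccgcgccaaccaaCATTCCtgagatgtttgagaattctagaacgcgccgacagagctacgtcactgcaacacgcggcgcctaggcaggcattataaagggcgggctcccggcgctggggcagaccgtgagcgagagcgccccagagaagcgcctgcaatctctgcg
Il33, chr19:29924863-29925162, plus strand: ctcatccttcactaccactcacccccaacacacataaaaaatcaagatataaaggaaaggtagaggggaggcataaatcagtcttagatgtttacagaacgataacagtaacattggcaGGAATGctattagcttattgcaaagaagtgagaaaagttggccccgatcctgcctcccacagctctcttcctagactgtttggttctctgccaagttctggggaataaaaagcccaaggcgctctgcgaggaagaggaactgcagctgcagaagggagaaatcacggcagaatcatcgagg
Il1rn, chr2:24336610-24336909, plus strand: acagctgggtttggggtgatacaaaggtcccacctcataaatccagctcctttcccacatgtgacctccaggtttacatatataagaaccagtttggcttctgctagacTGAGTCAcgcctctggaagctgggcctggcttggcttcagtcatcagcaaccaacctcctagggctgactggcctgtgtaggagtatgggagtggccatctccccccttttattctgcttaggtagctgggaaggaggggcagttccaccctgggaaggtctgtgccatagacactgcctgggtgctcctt

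The matches are descriptions of these windows. The letters of Cyr61 begin 103 bases before the start, those of the first Il33 start 131 bases before it and those of the first Il1rn start 141 bases before it.

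Depth was uneven and bears on every gene of this set. The shallowest library was A02 (mixed WT, 73109 reads) and the deepest A04 (mixed cancer, 4733121 reads), and 26.1% of the 5264 tested genes had 0 reads in A02. Levels are given as CPM, the reads of a gene over the TMM-scaled total of tested genes on the usual counts-per-million scale. A count of 0 over both libraries of a group allows up to 3 reads, which is 1.04 CPM for pure WT cells and 5.80 CPM once mixed. For cancer cells it is 5.72 CPM when pure and 0.566 CPM when mixed. These floors cover counting error only, since reads hold amplification copies. The summed level of 10 epithelial markers was 4991 to 19352 CPM over the 8 libraries. Of 10 fibroblast markers 3 had a row, with 0 to 7.31 CPM summed, and Col1a1 gave 1 read in A04 and 0 in the other libraries. Of 10 immune markers 3 had a row, with 0 to 2.27 CPM summed in WT and 0, 71.8, 11.7 and 25.9 CPM in the cancer libraries A03, A07, A04 and A08, nearly all of it Cd68. The part of such cells in the results was not tested. Of 6 endothelial markers 1 had a row, with 0 to 0.587 CPM.

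**Figure D1:**
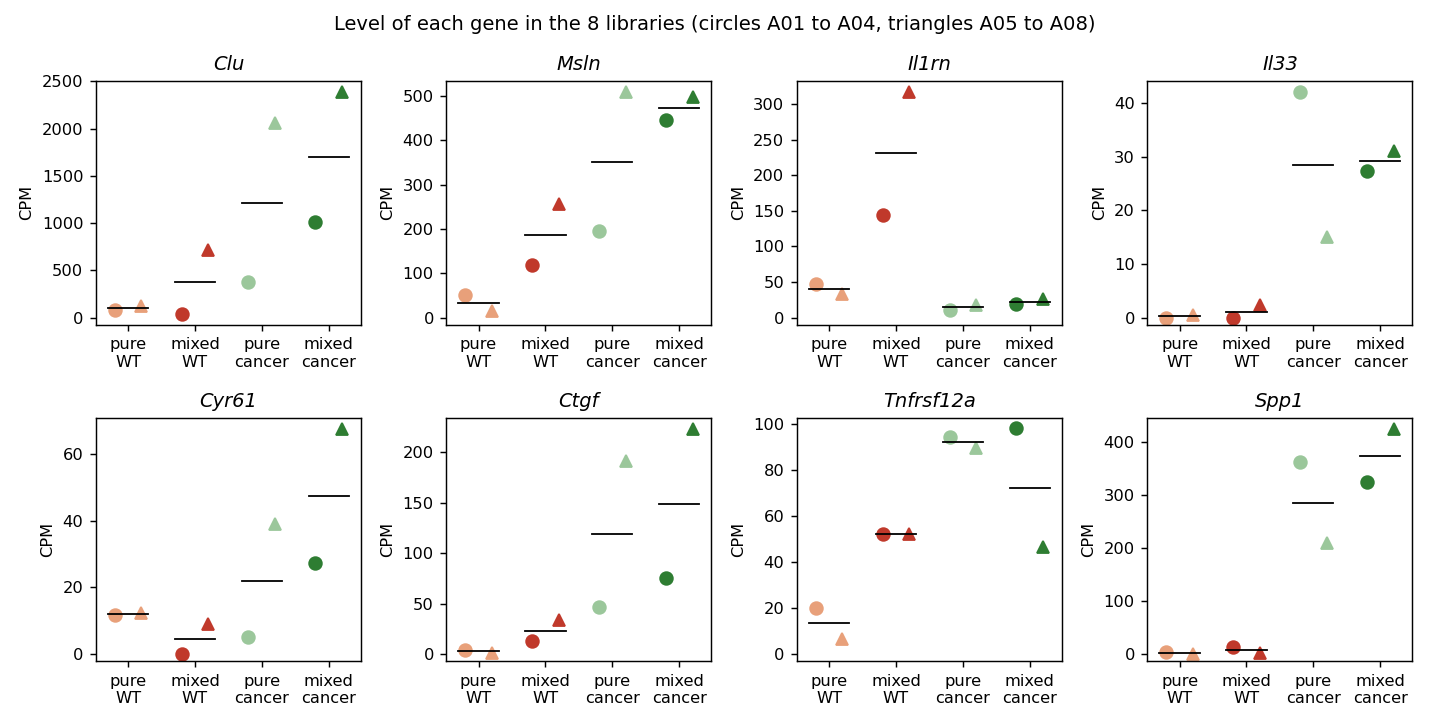
Level of each gene in CPM (vertical axis, linear, own scale per panel) in the 4 groups, with 1 point per library and a line at the mean of the 2 libraries. Il1rn stood highest in mixed WT cells, at 144 and 317 CPM, while Spp1 and Il33 were near 0 in all 4 WT libraries.

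The first question was how the genes differ between cancer and WT cells that had never met. Of the 8 members 6 rose in pure cancer against pure WT cells (edgeR, adjusted p under 0.05), where 9.95% of all tested genes were called in either direction. These were Clu, Msln, Il33, Ctgf, Tnfrsf12a and Spp1. Their median change, with Cyr61 and Il1rn included, was 3.50 on the log2 scale against -0.05 over all tested genes. Il1rn was the only member with a lower fitted level in cancer cells, and it was not called.

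Spp1 encodes osteopontin, a secreted ligand of integrins and CD44. Its reads in A01 and A05, the pure WT libraries, were 4 and 0, which is 3.66 and 0 CPM, and 362 and 210 CPM in the pure cancer libraries A03 and A07. Both cancer libraries were above both WT libraries, and the fitted change was 7.48 ± 0.85 on the log2 scale (SE, n = 2 libraries a group, edgeR adjusted p = 2.2e-06). On pooled reads the ratio was 190 with a 95% counting interval from 72.6 to 708.

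Ctgf encodes a secreted matricellular protein that binds integrins and is among the genes most often used to read YAP activity. It was at 4.58 and 1.69 CPM in pure WT cells, from 5 and 3 reads, and at 47.2 and 192 CPM in pure cancer cells. The groups were apart, although the 2 cancer libraries were far from each other. The fitted change was 5.34 ± 0.89 on the log2 scale (SE, n = 2, edgeR adjusted p = 0.00023).

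Il33 encodes a nuclear cytokine of the interleukin-1 family that is released from damaged epithelium. It had 0 and 1 read in pure WT cells against 8 and 5 reads in pure cancer cells, which is 0 and 0.562 against 42.0 and 15.0 CPM. The groups did not overlap. Because pure WT cells gave a single read, the ratio of 71.2 carried a 95% counting interval from 10.7 to 3024, and the gene was called at an adjusted p of 0.0069 by edgeR. The call was lost without A01, A05 or A03, with an edgeR adjusted p of 0.19, 0.12 and 0.067.

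Clu encodes clusterin, a secreted chaperone and a marker of the revival stem cells seen in repairing crypts. It was the most abundant member, at 81.5 and 125 CPM in pure WT and at 378 and 2056 CPM in pure cancer cells. All cancer libraries were higher, but A07 was far above A03. The fitted change was 3.56 ± 0.77 on the log2 scale (SE, n = 2, edgeR adjusted p = 0.0032), and DESeq2 did not call it (adjusted p = 0.11).

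Msln encodes mesothelin, a surface protein anchored by a lipid that is used as a fetal-like and tumor marker. It was at 51.3 and 15.7 CPM in pure WT and at 194 and 509 CPM in pure cancer cells, with no overlap. The fitted change was 3.43 ± 0.61 on the log2 scale (SE, n = 2, edgeR adjusted p = 0.00042).

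Tnfrsf12a encodes Fn14, the receptor of the cytokine TWEAK and a known YAP target. It was at 20.1 and 6.74 CPM in pure WT and at 94.5 and 89.8 CPM in pure cancer cells, where the 2 libraries were close together. The fitted change was 2.81 ± 0.72 on the log2 scale (SE, n = 2, edgeR adjusted p = 0.012), and it was not called without A05 (edgeR adjusted p = 0.27).

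Cyr61 encodes a matricellular protein related to Ctgf. Unlike Ctgf it was not called, with 11.9 and 12.4 CPM in pure WT and 5.25 and 38.9 CPM in pure cancer cells. The cancer libraries lay on both sides of the WT libraries, and A03 held a single read. The fitted difference of 0.99 ± 0.94 on the log2 scale was about the size of its error (SE, n = 2, edgeR adjusted p = 0.62).

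Il1rn encodes the secreted antagonist of the interleukin-1 receptor. It was at 46.7 and 33.7 CPM in pure WT and at 10.5 and 18.0 CPM in pure cancer cells, from 2 and 6 reads in the latter. The groups did not overlap, and the fitted difference of -1.42 ± 0.75 on the log2 scale was not called (SE, n = 2, edgeR adjusted p = 0.30).

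**Figure D2:**
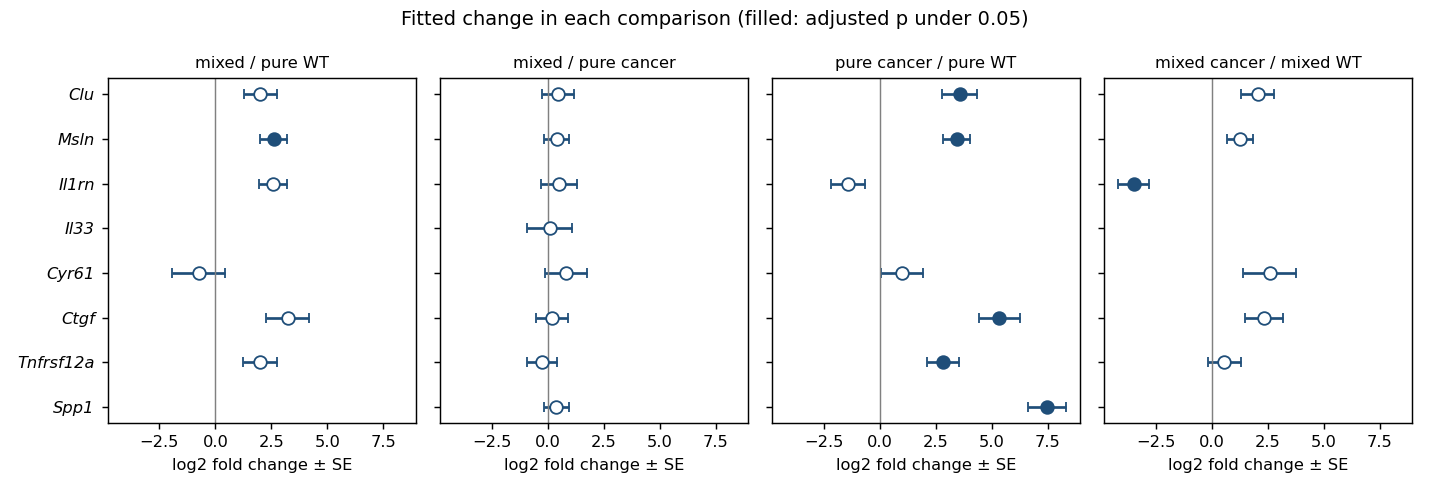
Fitted log2 fold change with its standard error (horizontal axis) for each gene in 4 comparisons, each with 2 libraries a group, filled where the adjusted p was under 0.05. Comparisons that rest on a group with 3 reads or fewer are left out, which are those of Il33 other than in cancer cells, and those of Spp1 that use mixed WT cells. The fitted values of mixed against pure cancer cells lay between -0.26 and 0.83, and the only called member in mixed against pure WT cells was Msln.

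The second question was what mixing with cancer cells does to WT cells. Msln rose, and it was the only called member of 8, where 0.741% of all tested genes were called. Both mixed WT libraries lay above both pure WT libraries for Msln, Il1rn, Ctgf and Tnfrsf12a. For Cyr61 both values were lower, but A02 held 0 reads, where 3 reads are 39.3 CPM, so its place could not be told. How many of all tested genes were apart in this way was not counted, so these orders are not shown to be particular to the members. For Clu, Il33 and Spp1 the groups overlapped. The median fitted change of the 8 members was 2.07 on the log2 scale against -0.10 over all tested genes, with 3 reads or fewer in a group for both Il33 and Spp1.

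Msln was at 118 and 256 CPM in mixed WT cells, from 9 and 113 reads, against 51.3 and 15.7 CPM in pure WT cells. The fitted change was 2.60 ± 0.61 on the log2 scale (SE, n = 2, edgeR adjusted p = 0.040). The call was lost without A05 (edgeR adjusted p = 0.53) or without A06 (edgeR adjusted p = 0.35), where the fitted change was 1.97 and 1.76.

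Il1rn was at 144 and 317 CPM in mixed WT cells, from 11 and 140 reads (3 and 69 different barcodes), and so above the 46.7 and 33.7 CPM of pure WT cells in both libraries. The fitted change of 2.59 ± 0.63 on the log2 scale was about that of Msln and narrowly missed the threshold (SE, n = 2, edgeR adjusted p = 0.051). Il1rn was called in 9 of the 13 alternative settings, among them DESeq2 (adjusted p = 0.0049) and barcode counts (edgeR adjusted p = 0.00055).

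Ctgf was at 13.1 and 34.0 CPM in mixed WT cells, from 1 and 15 reads, against 4.58 and 1.69 CPM in pure WT cells. The groups were apart on few reads, and the fitted difference of 3.22 ± 0.97 on the log2 scale was not called (SE, n = 2, edgeR adjusted p = 0.15). It was called in 4 of the 13 alternative settings, among them barcode counts (edgeR adjusted p = 0.0053), and not in the other 9, among them DESeq2 (adjusted p = 0.070). The 1 read of A02 is a single molecule barcode.

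Cyr61, the relative of Ctgf, had 0 and 4 reads in the mixed WT libraries A02 and A06, which is 0 and 9.06 CPM against 11.9 and 12.4 CPM in pure WT cells. In A02 3 reads are 39.3 CPM, so 0 reads there do not place it below pure WT cells. Its fitted difference of -0.75 ± 1.18 on the log2 scale had the opposite sign to that of Ctgf and was within its error (SE, n = 2, edgeR adjusted p = 0.91). Whether the 2 genes differ from each other in this comparison was not tested.

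Tnfrsf12a was at 52.4 and 52.1 CPM in mixed WT cells, from 4 and 23 reads, and above both pure WT libraries. The 4 reads of A02 carried 1 barcode, so its place there rests on a single barcode. The fitted difference was 1.99 ± 0.76 on the log2 scale and was not called (SE, n = 2, edgeR adjusted p = 0.33).

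Clu was split within mixed WT cells, at 39.3 CPM from 3 reads in A02 and 714 CPM from 315 reads in A06. A02 was below both pure WT libraries, at 81.5 and 125 CPM, and A06 above them. The fitted difference of 1.99 ± 0.74 on the log2 scale was not called (SE, n = 2, edgeR adjusted p = 0.31). Clu was called in 6 of the 13 alternative settings. Its fitted change was 2.74 without A02, and without A06 it turned to -1.48, so that A06 alone decided its direction.

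Il33 had 0 and 1 read in the mixed WT libraries and is at or under the floor in both WT groups, so no fold is given. Spp1 had 1 read in each mixed WT library, which is 13.1 and 2.27 CPM, against 4 and 0 reads in pure WT cells. The pooled ratio of 2.77 had a 95% counting interval from 0.251 to 19.4, and a change could not be seen at this depth.

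Library A02 was the shallowest of the 8 and had the highest share of mitochondrial reads, 10.6% against 2.86% to 6.82% in the others. Without it 4 of the 8 members were called in mixed against pure WT cells, which were Clu, Msln, Il1rn and Ctgf, while the calls over all tested genes went from 39 to 90. Without A05 or without A06 none of the members was called by edgeR, and the calls over all tested genes were 8 and 2. The part of depth and of mitochondrial reads in these values was not tested.

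The sorted mixed WT cells could also hold RNA of cancer cells. As a description, 23 genes were taken with at least 100 CPM in pooled pure cancer cells and at least 50 times the pure WT level, and their pooled level in mixed WT cells had a median of 2.13% of the cancer level. By library the median was 0% in A02 and 2.50% in A06, and the highest gene stood at 68.7%. Spp1, the only member among these 23 genes, stood at 1.46% with a counting interval from 0.175% to 5.37%. Msln stood at 59.7% (47.4% to 75.1%), Tnfrsf12a at 57.0% (34.2% to 93.2%), Clu at 42.5% (37.1% to 48.5%) and Ctgf at 22.2% (12.1% to 38.5%), against the pooled median of 2.13% for the 23 genes. Unlike the 23 genes, these 4 were not chosen for a low pure WT level. Their pooled pure WT levels were 29.2, 11.8, 108 and 2.79 CPM, against 395, 91.5, 1447 and 139 CPM in pure cancer cells. Part of each share thus stood in WT cells grown alone. The pooled values lean on the deeper library. In A02 the shares were 29.9% for Msln, 57.3% for Tnfrsf12a, 2.72% for Clu and 9.42% for Ctgf, where the highest of the 23 genes stood at 8.39%, and in A06 they were 64.9%, 57.0%, 49.3% and 24.4%, where the highest stood at 80.6%. Clu in A02, and all 4 genes in A06, were thus within the range of the 23 genes. The 23 genes were chosen without regard to their change on mixing. Among them Ly6a, at 28.0% pooled, was itself called higher in mixed against pure WT cells by edgeR. How much of any share was RNA of cancer cells was not tested. For Il33 and Cyr61, with 7.80% and 29.0%, the intervals ran from 0.183% to 51.9% and from 6.94% to 92.2%. Il1rn was 1913% of the pure cancer level. In cells grown alone, Cyr61 was at 12.2 CPM in pooled WT and 26.7 CPM in pooled cancer cells. Il1rn was at 38.7 and 15.2 CPM in the same groups.

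**Figure D3:**
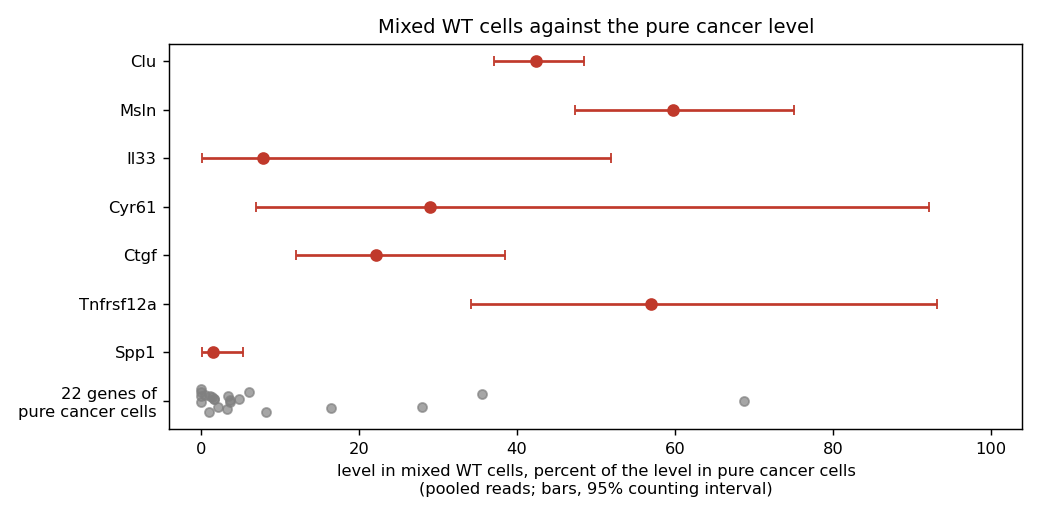
Pooled level in mixed WT cells as a percent of the pooled level in pure cancer cells (horizontal axis, linear) for 7 members, with 95% counting intervals, and for the 22 other genes chosen for their cancer level as gray points. Il1rn, at 1913%, is left out. Msln, Tnfrsf12a and Clu stood at 42.5% to 59.7%, and Spp1 at 1.46% lay among the gray points. The gray genes were also chosen for a low pure WT level, which Msln, Tnfrsf12a and Clu were not.

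The third question was what mixing with WT cells does to cancer cells. None of the 8 members was called by edgeR in mixed against pure cancer cells, where 0% of all tested genes were called, 69 genes had an unadjusted p under 0.05 and DESeq2 also called 0 genes. The fitted differences of the members were small, from -0.26 ± 0.67 for Tnfrsf12a to 0.83 ± 0.94 for Cyr61 on the log2 scale (SE, n = 2), and each was within its error. Every member but Il1rn had overlapping libraries. Il1rn was at 19.2 and 25.9 CPM in mixed cancer cells against 10.5 and 18.0 CPM in pure cancer cells, which differed by 0.50 ± 0.81 on the log2 scale.

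The levels of the members within cancer cells were nevertheless spread out. Clu was at 1010 and 2386 CPM in the mixed cancer libraries A04 and A08, and Ctgf at 75.1 and 223 CPM. Cyr61 was at 27.4 and 67.4 CPM there. In order of level the 4 cancer libraries ran A03, A04, A07 and A08 for all 3 of these genes, that is, across pure and mixed cells alike. The share of mitochondrial reads in the same order was 6.82%, 4.32%, 2.86% and 2.95%, and its part in the order was not tested. Spp1 was at 324 and 425 CPM, Msln at 446 and 498 CPM and Il33 at 27.4 and 31.1 CPM in A04 and A08, so these 3 were closer together in mixed than in pure cancer libraries. Tnfrsf12a went the other way, at 98.2 and 46.7 CPM.

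The change on mixing in WT cells was set against that in cancer cells by a test of their difference. None of the members was called by edgeR, where 0.076% of all tested genes were called and 383 genes had an unadjusted p under 0.05. The largest fitted differences were 3.02 ± 1.20 for Ctgf, 2.26 ± 1.01 for Tnfrsf12a and 2.20 ± 0.81 for Msln on the log2 scale (SE, edgeR adjusted p = 0.56, 0.64 and 0.55). The fitted change on mixing in WT cells was thus not shown to differ from that in cancer cells for any member.

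The fourth question was how cancer and WT cells compare once they have shared an organoid. Il1rn fell and Spp1 rose in mixed cancer against mixed WT cells, so 2 of 8 members were called, where 6.42% of all tested genes were called. Il1rn was at 19.2 and 25.9 CPM in mixed cancer against 144 and 317 CPM in mixed WT cells. Its change of -3.50 ± 0.69 on the log2 scale was called (SE, n = 2, edgeR adjusted p = 0.0016), and the call was lost without A06 (edgeR adjusted p = 0.096) or A04 (edgeR adjusted p = 0.070). Spp1 was at 324 and 425 CPM against 1 read in each mixed WT library, with a pooled ratio of 84.9, a 95% counting interval from 23.5 to 702 and an edgeR adjusted p of 7.4e-05.

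Clu, Msln, Il33, Cyr61 and Ctgf were each higher in both mixed cancer libraries than in both mixed WT libraries without being called. For Il33 and Cyr61 this includes 0 reads in A02, where 3 reads are 39.3 CPM. How many of all tested genes were apart in this way was not counted. The fitted differences on the log2 scale were 2.04 ± 0.73 for Clu, 1.24 ± 0.57 for Msln, 2.57 ± 1.16 for Cyr61 and 2.33 ± 0.83 for Ctgf (SE, n = 2, edgeR adjusted p = 0.12, 0.27, 0.26 and 0.11). Clu was called in 7 of the 13 alternative settings, and the mixed WT library decided its size, with 5.48 on the log2 scale without A06 and 1.23 without A02. Il33 had 146 reads against 1, a pooled ratio of 14.3 with a 95% counting interval from 2.52 to 567 and an edgeR adjusted p of 0.18. For Tnfrsf12a the libraries overlapped, with 98.2 and 46.7 against 52.4 and 52.1 CPM. This comparison shares the mixed WT libraries with that of mixed against pure WT cells, so the values are not independent.

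Over the 4 groups, the order of the mean levels put mixed cancer cells first for Clu, Msln, Il33, Cyr61, Ctgf and Spp1, each overlapping pure cancer cells in second place. On pooled reads, which lean on the deep library A04, Clu and Ctgf were instead lower in mixed than in pure cancer cells. The pooled ratios were 0.733 (counting interval 0.679 to 0.792) and 0.579 (0.451 to 0.752). These intervals leave out the spread between libraries, which overlapped for both genes, and count amplification copies as separate reads. The 5164 reads of Clu in A04 carried 255 barcodes, so a decrease is not shown. For Ctgf the libraries of pure cancer, mixed WT and pure WT cells did not overlap, at means of 119, 23.5 and 3.13 CPM. These gaps rest on few reads, with 1 read in the mixed WT library A02 and 9 in the pure cancer library A03. Tnfrsf12a and Msln stepped only between mixed and pure WT cells, and the neighbours of Clu in the order all overlapped. Il1rn was the only member with 4 groups apart, at a mean of 231 CPM in WT cells once mixed and 40.2 CPM before, and of 22.6 CPM in cancer cells once mixed and 14.2 CPM before. Its gap between mixed and pure cancer cells was within counting error, with a pooled ratio of 1.27 (counting interval 0.623 to 3.03). These orders rest on 2 libraries a group, and how many of all tested genes show such gaps was not counted.

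The wider pathway was read from lists of known genes with the members left out. Of 25 further YAP and TEAD targets 10 were tested. In mixed against pure WT cells 1 rose and none fell by edgeR, where 0.646% and 0.095% of all tested genes did. The median of the 10 was 1.35 against -0.10 over all tested genes on the log2 scale. The called target was F3, which encodes tissue factor, the start of the extrinsic clotting cascade. It was at 65.5 and 122 CPM against 5.49 and 2.25 CPM (4.71 ± 0.91, SE, n = 2, edgeR adjusted p = 0.013). In cancer cells F3 was at 5.25 and 21.0 CPM when pure and at 20.3 and 20.7 CPM when mixed, below both mixed WT libraries.

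In pure cancer against pure WT cells 3 of these 10 targets rose and none fell by edgeR. Over all tested genes 5.11% rose and 4.84% fell. The median of the 10 was 1.74 against -0.05 over all tested genes. Ankrd1, a nuclear cofactor and a widely used YAP target, had 42 reads against 3, a ratio of 76.6 with a counting interval from 24.5 to 386. Ajuba, a LIM protein that restrains LATS kinases, was at 31.5 and 257 against 19.2 and 20.8 CPM (2.89 ± 0.79, SE, n = 2, edgeR adjusted p = 0.018). Igfbp3, a carrier of insulin-like growth factors, had 13 reads against 1, a ratio of 71.2 with a counting interval from 10.7 to 3024.

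In mixed cancer against mixed WT cells Igfbp3 was at least 9.76-fold higher, with 300 pooled reads against 0. Of these 296 were in A04 and 4 in A08, which is 57.9 and 20.7 CPM. Areg, the EGF receptor ligand amphiregulin, fell by 5.39 ± 1.09 on the log2 scale (SE, n = 2, edgeR adjusted p = 0.0022), with 131 and 159 CPM in mixed WT against 3.91 and 0 CPM in mixed cancer cells. Areg, like Il1rn, was therefore higher in the WT cells of this comparison. It was at 32.9 and 3.37 CPM in pure WT cells and had 0 reads in both pure cancer libraries.

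Of 20 components of the Hippo pathway all had a row and 7 were tested. By edgeR none was called in mixed against pure WT cells or in pure cancer against pure WT cells. Over all tested genes 0.741% and 9.95% were called there. The medians of the 7 were -0.60 and 0.96 on the log2 scale, against -0.10 and -0.05 over all tested genes. Tead2, a TEAD factor, rose in mixed cancer against mixed WT cells by 3.65 ± 0.78 on the log2 scale (SE, n = 2, edgeR adjusted p = 0.0035), at 113 and 239 against 13.1 and 13.6 CPM. The mixed WT values came from 1 read in A02 and 6 reads in A06. Tead2 was at 54.0 and 33.7 CPM in pure WT and 121 and 168 CPM in pure cancer cells. Yap1 itself was at 26.5 and 28.1 CPM in WT cells grown alone and at 52.4 and 29.5 CPM in those mixed, the latter from 4 and 13 reads. In cancer cells it was at 73.5 and 35.9 CPM alone and at 47.2 and 10.4 CPM mixed, the last from 2 reads. It was not called in any of the 5 comparisons. Read counts say nothing of where the YAP protein was in the cell.

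**Figure D4:**
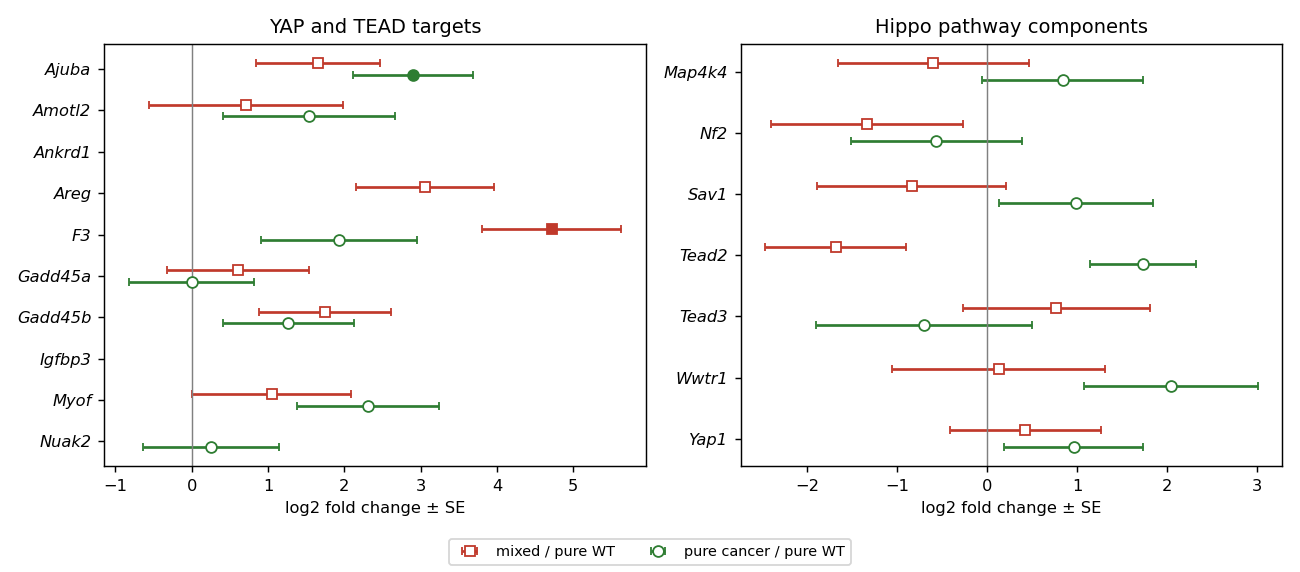
Fitted log2 fold change with its standard error (horizontal axis) for the tested YAP and TEAD targets (left) and Hippo components (right) in mixed against pure WT cells (squares) and pure cancer against pure WT cells (circles), filled where the adjusted p was under 0.05. Values that rest on a group with 3 reads or fewer are left out, among them those of Ankrd1 and Igfbp3; F3 at 4.71 and Ajuba at 2.89 are the filled points.

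The list of other fetal-like and repair genes was drawn up with its members' behavior in these libraries known, so it is no independent evidence of a direction. Its 21 tested genes had a median of 2.35 in mixed against pure WT cells, against -0.10 over all tested genes on the log2 scale. By edgeR 6 of the 21 rose and none fell, where 0.646% and 0.095% of all tested genes did. The 6 were Ly6d, Ly6a, Anxa10, Anxa3, Anxa1 and S100a6. S100a6, a calcium-binding protein, was at 3618 and 6396 against 1653 and 868 CPM. In pure cancer against pure WT cells 13 rose and 1 fell, where 5.11% and 4.84% of all tested genes did. The median was 2.78 against -0.05 over all tested genes. The lower gene was Anxa10, which had 2 reads against 272. Anxa10, a calcium-dependent membrane-binding protein, was highest in mixed WT cells (1337 and 1312 CPM), as Il1rn was, and at 5.25 CPM or less in all cancer libraries. Plat, the tissue plasminogen activator, Tm4sf1 and Tubb6 stood on the cancer side like Spp1, and each had at most 6 reads over the 2 libraries of either WT group. Their ratios of pure cancer to pure WT cells were 38.3 for Plat (counting interval 8.80 to 347) and 87.6 for Tm4sf1 (22.3 to 754), and Tubb6 rose by 6.51 ± 0.86 on the log2 scale (SE, n = 2, edgeR adjusted p = 1.4e-05). Ly6a, a surface protein of fetal-like epithelium, was at 459 and 1969 CPM in mixed WT against 114 and 46.7 CPM in pure WT cells.

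Receptors, ligands and other partners of the members were mostly too low to test. Of 37 listed genes 26 had a row and 7 were tested. Itga3, an integrin subunit of the laminin receptor, rose in pure cancer against pure WT cells by 2.19 ± 0.60 on the log2 scale (SE, n = 2, edgeR adjusted p = 0.018), at 110 and 230 against 34.8 and 40.5 CPM. Casp1, the protease that activates interleukin-1 beta, had 0 reads in all 4 cancer libraries, and mixed cancer cells were at least 47.8-fold lower than mixed WT cells, where 0 and 14 reads were counted. Casp1 was at 14.6 and 28.7 CPM in pure WT cells.

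Among 2744 genes with at least 50 reads per library on average, those whose log2 CPM ran most like a member's over the 8 libraries were found. The libraries share depth and the contrast of WT with cancer, so the correlations are descriptions. Spp1 ran most like Isg20 (r = 0.99), Aqp5 and Krt4, all 3 of them low in WT and high in cancer cells, with Krt4 at a mean of 57.1 in pure WT and 1888 CPM in pure cancer cells. Ctgf ran most like Tinagl1 (r = 0.99), Ly6a and Rbpms. S100a14 (r = 0.98) and Ier3 were among the genes most like Msln, and Clu ran most like Ctsl (r = 0.98), Arf6 and Tax1bp3. Tnfrsf12a ran most like Oaf (r = 0.98), Krtcap3 and Ostf1. Il1rn, Il33 and Cyr61 had too few reads for this measure.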

How the data were processed

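The authors aligned read 2 to the mm10 RefSeq transcriptome with BWA, discarded reads that mapped to several places and assigned reads to genes with featureCounts. They deposited read counts per gene without normalization. These counts hold amplification copies. Deposited barcode counts, the distinct molecule barcodes per gene, served as an alternative and cannot exceed 256. A deposited transcript table was not used because each of its values is fixed by the barcode count. A table of the authors' own DESeq2 1.22.2 comparison of mixed with pure WT cells, with means, log2 fold changes and p-values, was not used.

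The test on read counts was edgeR 4.0.16 (R 4.3.3). The filter was filterByExpr with a minimum count of 10, libraries were scaled with TMM factors, and all 8 entered a single quasi-likelihood fit with 4 group means. A called gene had an adjusted p under 0.05 (Benjamini-Hochberg over 5264 genes). The SE was taken from the log2 fold change and its F statistic. Alternatives were barcode counts, median-of-ratios size factors, no filter, only the 4 libraries compared, DESeq2 1.42.0 and leaving out each library. Counting intervals are exact 95% intervals on pooled reads, and leave out the spread between libraries and the copies made by amplification. The steps were tested on simulated data. A spike-in and eGFP, 2 entries in all, were left out.

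All members were named. From each list the genes called in any comparison were named, at most 8 by size of change (fewer than 2 called: the 2 with most reads). The cell type markers were left out of this rule. Of the 10 epithelial markers 3 were called lower by edgeR in mixed cancer against mixed WT cells, where 4.41% of all tested genes were. In pure cancer against pure WT cells 1 was, where 4.84% of all tested genes were, and the immune marker Cd68 was called higher. S100a6 and the order of the cancer libraries were singled out after their values were seen. Likeness was the Pearson correlation of log2 CPM with a prior count of 2. An allele of the cancer cells and a gene of the lists are not reported here. The members and lists were chosen with earlier results of these data known.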

Additional observations from a re-analysis of the deposited data

How the results depend on the processing

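Against 13 other settings, counts of called members moved most in mixed against pure WT cells. The main count of 1, with 39 genes called in all, became 3 of 93 on barcode counts, 2 of 44 with median-of-ratios size factors, 2 of 68 without the filter, 3 of 108 with only the 4 libraries compared and 2 of 69 with DESeq2, and it ran from 0 to 4 when single libraries were left out (0 without A05 or A06, 2 without A04, 3 without A08, 4 without A02, A03 or A07). In mixed cancer against mixed WT cells the 2 called members became 2 to 4 when single libraries were left out (4 without A03 or A07). Over all tested genes, calls ran from 2 without A06 to 118 without A07 (main 39) in mixed against pure WT cells, from 261 without A05 to 745 without A02 (main 524) in pure cancer against pure WT cells, from 167 without A04 to 506 without A07 (main 338) in mixed cancer against mixed WT cells and from 1 without A04 or A06 to 32 without A03 (main 4) for the difference between the changes on mixing.

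On barcode counts, Msln and Spp1 in mixed against pure cancer cells turned to -0.14 and -0.13 on the log2 scale. Their barcode counts in A04, 245 and 243 from 2279 and 1658 reads, are near the limit of 256, so these values could not rise with the reads. Clu, with 255 barcodes from 5164 reads in A04, carries the same limit in barcode comparisons that use mixed cancer cells. With single libraries left out, fitted log2 changes that crossed 0 ran from -1.48 to 2.74 for Clu in mixed against pure WT cells. In mixed against pure cancer cells they ran from -0.29 to 2.20 for Clu, -0.11 to 1.34 for Msln, -0.48 to 0.94 for Il33, -0.65 to 1.62 for Ctgf and -0.96 to 0.17 for Tnfrsf12a. They ran from -1.29 to 1.62 for Cyr61 in pure cancer against pure WT cells, from -0.19 to 0.95 for Tnfrsf12a in mixed cancer against mixed WT cells and from -1.94 to 2.29 for Clu in the difference between the changes on mixing. The cause was not tested. No paired analysis was run, because the wells carry no shared replicate numbers, although the groups repeat in the same order from A01 to A04 and from A05 to A08. With 2 libraries a group and few reads in A02, changes of Il33, Cyr61 and Spp1 within WT cells could not be seen at this depth.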
